A study of Sus scrofa with 5 samples.

Results

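The nuclei described here are aortic smooth muscle nuclei selected on a high joint level of 8 genes, IGSF10, HRH1, TMEM108, VGLL3, IGF2BP2, PPM1L, SCHIP1 and TFDP2. A nucleus was eligible with at least 2000 UMIs (unique molecular identifiers, the counted RNA molecules) and with at least 3 of the 6 smooth muscle genes MYH11, ACTA2, LMOD1, SYNPO2, CNN1 and SMTN detected. Each eligible nucleus received the mean over the 8 panel genes of ln(1 + UMIs per 10000), and the top 5% over all libraries with at least 3 panel genes detected were taken. This gave 941 high-panel nuclei of 18812 eligible smooth muscle nuclei, among 45580 barcodes in all, and left 17871 other smooth muscle nuclei. The scores chose the nuclei and are not a result: the lowest score of a high-panel nucleus was 1.3150 and the 20th lowest 1.3194, and the highest score outside was 1.3146 and the 20th highest outside 1.3104. The human counterparts of the panel all lie on chromosome 3, and the question put to the nuclei was whether genes that are linked on a chromosome rose together.

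The nuclei came from abdominal aortae of castrated male Ossabaw pigs, a breed used as a model of diet-induced obesity, that were 12 months old when the diet began. The obese group (3 libraries) ate a high-fat, high-fructose diet and the control group (2 libraries) ate chow, for 9 months by one label and 6 months by another. Each library was made from about 50 mm of frozen vessel, from which nuclei stained with DRAQ5 were sorted and captured with 10x Genomics 3' v3.1 chemistry. No lesion was selected, all animals were castrated males, and each library was treated as 1 animal, so that p-values measure the spread between these samples.

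Smooth muscle cells of the arterial media keep a contractile programme and can leave it when a vessel is injured. The panel mixes roles. HRH1 is the histamine receptor that couples to Gq and calcium release, VGLL3 is a cofactor of TEAD transcription factors, TFDP2 is the partner of E2F factors, IGF2BP2 binds mRNAs, PPM1L is a membrane-bound protein phosphatase, SCHIP1 binds the Hippo regulator schwannomin, TMEM108 is a transmembrane protein studied in neurons, and IGSF10 is a large immunoglobulin superfamily protein. Genes on one chromosome are mostly regulated one by one, and a nucleus contributes RNA from all its chromosomes. In the RefSeq annotation of Sscrofa11.1 all 8 panel genes lie on pig chromosome 13, in the order HRH1, TMEM108, TFDP2, IGSF10, SCHIP1, PPM1L, IGF2BP2 and VGLL3.

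The libraries held 21516249 to 47724416 UMIs, and 199 barcodes occurred in more than 1 library. High-panel nuclei numbered 25, 78 and 67 in obese replicates 1 to 3 and 640 and 131 in control replicates 1 and 2, so that control replicate 1 gave most of them. Their summed counts ran from 109868 UMIs in obese replicate 1 to 3663776 in control replicate 1. Their median depth was 3829, 3853 and 3403 UMIs in the obese pigs and 4307.5 and 4162 in the control pigs, below the medians of 4262.5, 4320, 3959, 4387 and 4309 in the other smooth muscle nuclei of the same pigs. All 10 genes of a wider smooth muscle marker list had UMIs in the high-panel nuclei of every pig, and their summed level was 11315 to 15765 CPM (UMIs per 1000000), against 10161 to 13268 CPM in the other nuclei. Nuclei of both classes were eligible only with smooth muscle genes detected, so these marker values follow in part from the choice of nuclei. They are no independent check of the cell type. No doublet removal was part of the rule.

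In the high-panel nuclei the levels of the 8 genes, which chose them, ran from TMEM108, IGSF10 and VGLL3 at the low end to SCHIP1 at the high end. SCHIP1 stood at 2021, 2528 and 4230 CPM in obese replicates 1 to 3 and at 2800 and 2983 CPM in control replicates 1 and 2. IGSF10 stood at 91.0, 192, 179, 264 and 295 CPM in the same order, and VGLL3 at 328, 175, 213, 369 and 74.5 CPM. The median high-panel nucleus had 5 panel genes detected in every pig, against 2 or 3 in the other nuclei. No test was made of these values. Each gene was then left out in turn: nuclei were chosen on the other 7 genes by the same rule, and the gene left out was measured in them. The measured gene thus had no part in choosing its nuclei, but the panel itself was chosen with earlier results of these data known. The held-out values are therefore not independent of how the panel was chosen.

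Of the 8 held-out genes, 7 were called higher in the nuclei chosen without them (edgeR quasi-likelihood test with the pig as a block, Benjamini-Hochberg adjusted p under 0.05 over all genes tested). In these 8 fits together 1.7% of the tested genes were called higher. All 8 panel genes lie on chromosome 13, where 26.2% of the tested genes outside the panel were called higher in the high-panel nuclei. IGSF10 was measured at 48.7, 80.3, 45.0, 170 and 133 CPM in nuclei chosen on the other 7 genes and at 22.2, 45.8, 23.9, 76.1 and 62.8 CPM in the rest, in obese replicates 1 to 3 and control replicates 1 and 2. It was higher in every pig, and its log2 fold change of 1.08 ± 0.18 (SE; edgeR adjusted p = 4.95e-06) was the highest of the 8. HRH1 rose from 136, 106, 115, 184 and 188 CPM to 179, 178, 193, 317 and 312 CPM, again in every pig (log2 0.73 ± 0.15, edgeR adjusted p = 0.000124). Both genes were higher in the 2 control pigs than in the 3 obese pigs in either class.

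TFDP2 stood at 372, 399, 289, 378 and 360 CPM in the chosen nuclei and at 173, 224, 140, 223 and 239 CPM in the rest (log2 0.86 ± 0.14, edgeR adjusted p = 9.2e-07). PPM1L was higher in every pig too, at 583, 887, 1089, 1066 and 936 CPM against 435, 474, 469, 605 and 563 CPM (log2 0.83 ± 0.13). SCHIP1, the most abundant gene of the panel, rose by 0.62 ± 0.11 on the log2 scale and in every pig. IGF2BP2 rose by 0.77 ± 0.17 and was higher in 4 of 5 pigs, with obese replicate 1 at 48.2 against 64.3 CPM from 5 UMIs. TMEM108 was called at an edgeR adjusted p of 0.0431 but was higher in only 3 of the 5 pigs, with obese replicate 1 and control replicate 2 going the other way. VGLL3 was not called (log2 0.45 ± 0.18, edgeR adjusted p = 0.172), and its values of 103, 48.7, 68.3, 249 and 29.3 CPM in the chosen nuclei followed the pig more than the class. It was called with the top 5% taken within each library (log2 0.54, edgeR adjusted p = 0.0186). It was also called with every nucleus thinned to 2000 UMIs (log2 0.86, edgeR adjusted p = 0.000357), and in no other setting run. TMEM108 lost its call without obese replicate 2 (edgeR adjusted p = 0.383), without obese replicate 3 (0.248), without control replicate 1 (0.389), without nuclei holding markers of other cell types (0.112) and without the filter on low counts (0.188). IGF2BP2 lost its call without control replicate 1 (edgeR adjusted p = 0.251), where 5 of the 8 genes were called.

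**Figure D1:**
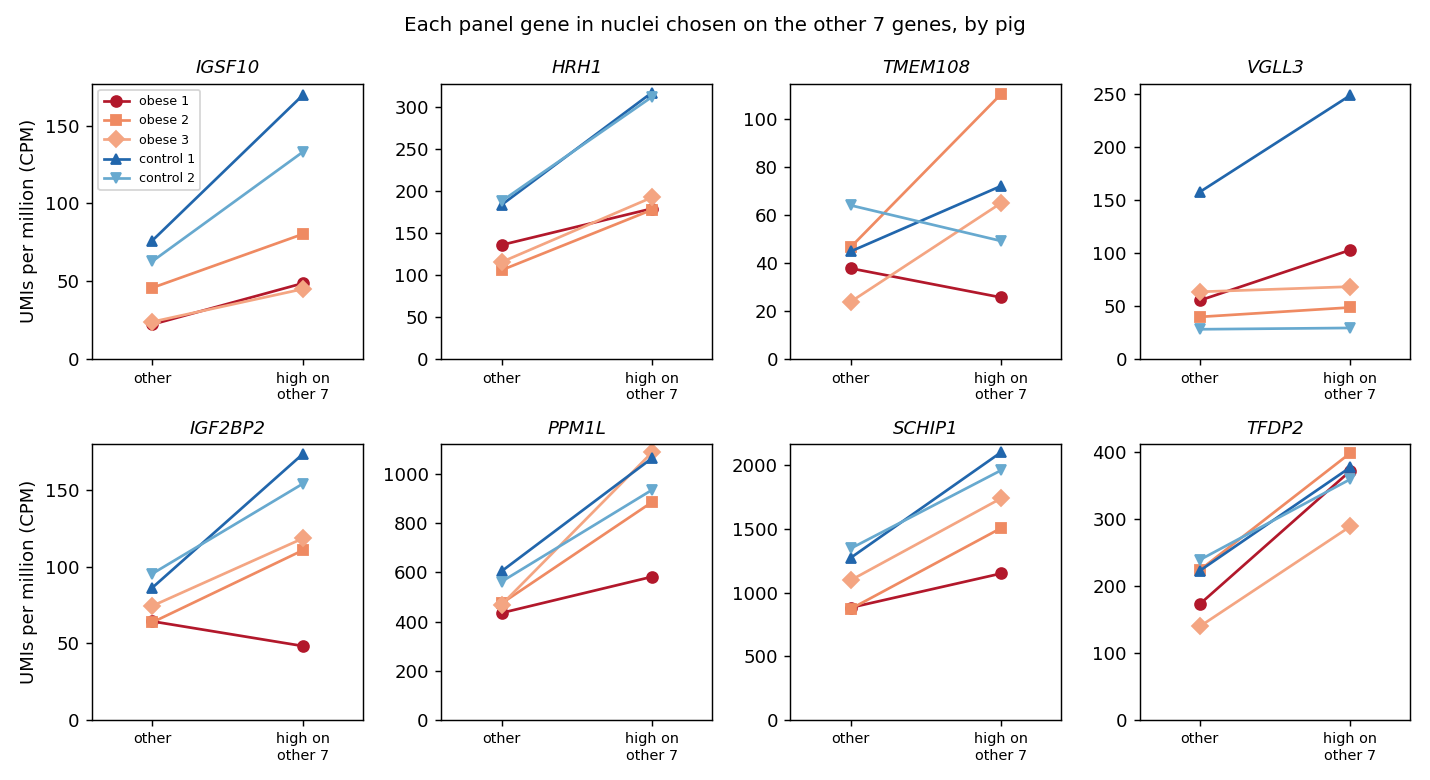
Level of each panel gene (CPM, linear axis from 0) in nuclei chosen on the other 7 panel genes and in all other smooth muscle nuclei, with 1 line per pig. Lines rise in all 5 pigs for IGSF10, HRH1, VGLL3, PPM1L, SCHIP1 and TFDP2, in 4 for IGF2BP2 and in 3 for TMEM108.

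The rise was not limited to the panel but was found along chromosome 13. With the 8 panel genes removed from all sums, chromosome 13 gave 15.9%, 16.6% and 19.1% of the placed UMIs in the high-panel nuclei of obese replicates 1 to 3 and 15.5% and 14.1% in those of control replicates 1 and 2. In the other smooth muscle nuclei it gave 11.2%, 10.97%, 10.9%, 10.1% and 10.3%. The classes did not overlap, and the lowest share in high-panel nuclei was well above the highest share in the rest. The means were 16.2% ± 1.83 and 10.7% ± 0.466 (SD, n = 5), and the log2 ratio within a pig was 0.60 ± 0.14 (SD, n = 5), a 1.51-fold difference that was positive in 5 of 5 pigs. The exact two-sided sign permutation test over pigs gave p = 0.0625, which is the smallest that 5 pigs allow, and 0.108 after Benjamini-Hochberg adjustment over 19 chromosomes, so this design could not pass 0.05. Leaving out every gene within 1 Mb of a panel gene gave a mean log2 ratio of 0.61.

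The other 18 chromosomes had mean log2 ratios between -0.18 and 0.04. Of these, 10 were lower in the high-panel nuclei of all 5 pigs and 0 were higher in all 5; the shares of a nucleus class sum to a fixed total. Chromosome 14 had the highest mean of these, carried by obese replicate 1 at 0.27, where the class held 25 nuclei, while the other 4 pigs lay between -0.05 and 0.02. Chromosome 1 was likewise at 0.20 in obese replicate 1 and below 0 in the remaining pigs.

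**Figure D2:**
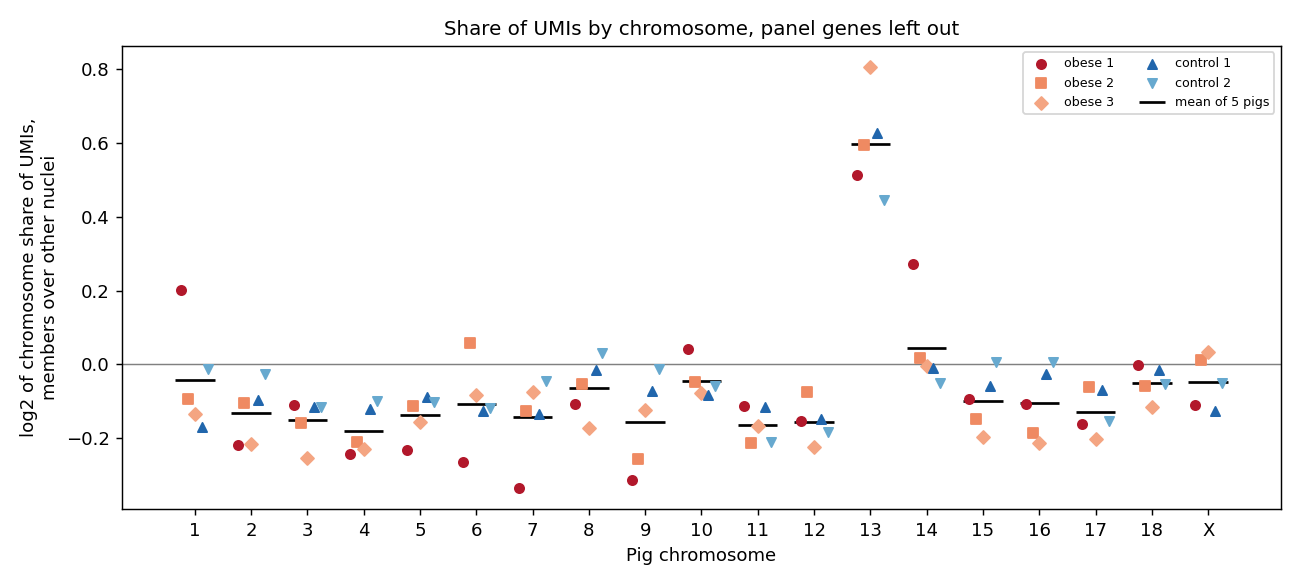
Log2 ratio of each chromosome's share of UMIs in high-panel nuclei over the other smooth muscle nuclei, by pig, with panel genes left out; bars are means of 5 pigs. Chromosome 13 lies between 0.45 and 0.81 in the 5 pigs, and the means of the other chromosomes lie between -0.18 and 0.04.

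Gene by gene, 244 of 14038 tested genes outside the panel were higher in the high-panel nuclei (1.74%) and 389 were lower (2.77%). Of the 244, 196 lay on chromosome 13, 27 were not placed on a chromosome here, and 21 were spread over the other chromosomes. The 196 were 26.2% of the 749 tested genes of chromosome 13, while 0.223% of the 9431 genes placed elsewhere were higher. No other chromosome passed 0.735%. The median log2 fold change was 0.48 on chromosome 13, where 86.0% of genes were above 0, against -0.09 over all tested genes and -0.17 to -0.04 for the other chromosomes. Among genes with a mean of at least 20 CPM in either class, 231 of 446 on chromosome 13 were higher in all 5 pigs, against 132 of 5427 off it or not placed. Without control replicate 1 the called genes fell to 87 higher and 188 lower, and without obese replicate 2 to 135 and 216; the chromosome 13 genes among those higher were then 66 and 114. Taken without the pig as a block, the same counts gave 0 genes higher and 2 lower in edgeR, with 405 higher at an unadjusted p under 0.05, and DESeq2 with the block called 211 higher and 101 lower.

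Of the 15 abundant genes with the largest rise, 13 were on chromosome 13. ARHGEF26, a guanine nucleotide exchange factor, led them at 228, 209, 226, 74.8 and 112 CPM in the high-panel nuclei of obese replicates 1 to 3 and control replicates 1 and 2, against 74.7, 76.7, 68.2, 46.4 and 66.4 CPM in the rest (log2 1.21 ± 0.16, edgeR adjusted p = 1.03e-10). Every high-panel value lay above the other class of the same pig, as the choice of the named genes required. KCNAB1, a regulatory subunit of voltage-gated potassium channels and one of the most abundant transcripts of these nuclei, stood at 14308, 14359, 19887, 10885 and 8433 CPM against 8365, 7383, 7483, 5692 and 5662 CPM (log2 0.94 ± 0.10). Its classes did not overlap even between pigs.

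LMCD1, a LIM-domain protein of muscle, was at 1009 ± 633 CPM against 476 ± 235 CPM (SD, n = 5). MECOM, a zinc finger transcription factor, was at 2103 ± 434 against 1145 ± 74.2 CPM, and ITPR1, the calcium release channel opened downstream of Gq receptors, at 1232 ± 240 against 671 ± 62.3 CPM. PDZRN3, a ubiquitin ligase, was at 806 ± 175 against 445 ± 64.1 CPM. The rest of these 13 had unrelated roles: RAD18 in repair of damaged DNA, TOMM70 in import into mitochondria, GFM1 in mitochondrial translation, CMC1 in assembly of cytochrome oxidase, PDIA5 in protein folding, GYG1 in the start of glycogen synthesis, and BTD in recycling of biotin. Their log2 fold changes lay between 0.86 and 0.98. The remaining 2 of the 15 were C3orf70 (0.97 ± 0.19), which was not placed here, and TOX3 (0.94 ± 0.22), a chromatin-associated factor gene on chromosome 6. TOX3 was at 72.8, 161, 67.5, 26.7 and 40.7 CPM against 26.8, 59.2, 22.7, 24.9 and 28.3 CPM, and the classes were closest in control replicate 1.

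The rise was of like size near the panel genes and far from them. Of 77 tested genes within 1 Mb of a panel gene, 24 were higher (31.2%) with a median log2 fold change of 0.50, and of the 672 farther away on the chromosome 172 were higher (25.6%) with a median of 0.47. In 15 windows of 49 or 50 genes along the chromosome the medians lay between 0.34 and 0.57, and each window held 8 to 19 genes called higher. Of the 16 genes that flank the panel, 13 were above 0 with a median of 0.47, and 4 were called higher, all 4 in 5 of 5 pigs. MBNL1, a splicing regulator beside IGSF10, had a log2 fold change of 0.77 ± 0.11 (edgeR adjusted p = 8.55e-10). IFT80, a cilium transport gene beside SCHIP1, had 0.74 ± 0.14, SENP2, a SUMO protease beside IGF2BP2, 0.63 ± 0.16, and VGLL4, a TEAD cofactor beside HRH1, 0.55 ± 0.13. The flanking genes below 0 were ATP2B2, P2RY12 and CADM2, and none of these was called.

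**Figure D3:**
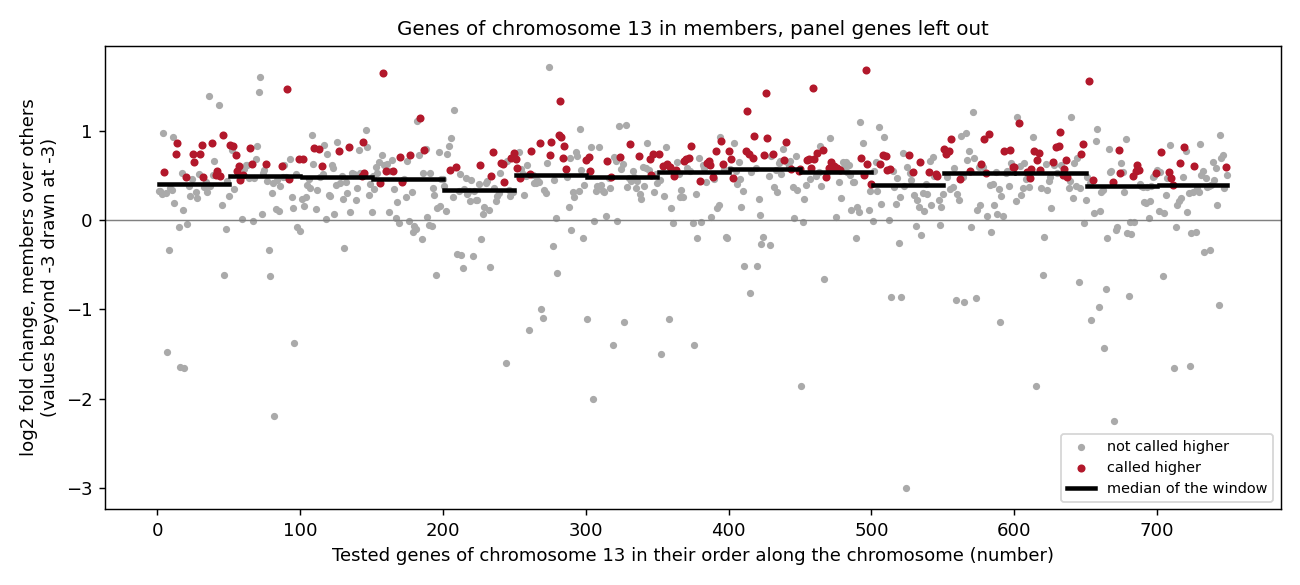
Log2 fold change (high-panel over other nuclei) of the 749 tested genes of chromosome 13 in their order along the chromosome, with genes called higher in red and black bars for the medians of 15 windows. All window medians lie between 0.34 and 0.57.

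At the level of single nuclei, the chromosome 13 share without panel genes was set against its median over the eligible nuclei of the same pig. The median of this ratio was 1.38, 1.5 and 1.86 in the high-panel nuclei of obese replicates 1 to 3 and 1.52 and 1.36 in those of control replicates 1 and 2, against 0.967 to 0.998 in the rest. A ratio above 1.5 was found in 485 of 941 high-panel nuclei (51.5%) and in 10.1% of the others. By pig the shares above 1.5 were 44.0%, 51.3%, 70.1%, 51.7% and 42.7% among high-panel nuclei and 5.86% to 13.5% among the others. A ratio under 1/3 was found in 0 of 941 high-panel nuclei and in 12.4% of the others. In the other nuclei the distribution had a smaller peak between 0.1 and 0.2 in every pig, where no high-panel nucleus lay. Within the middle range of 0.8 to 1.25 lay 284 high-panel nuclei (30.2%).

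**Figure D4:**
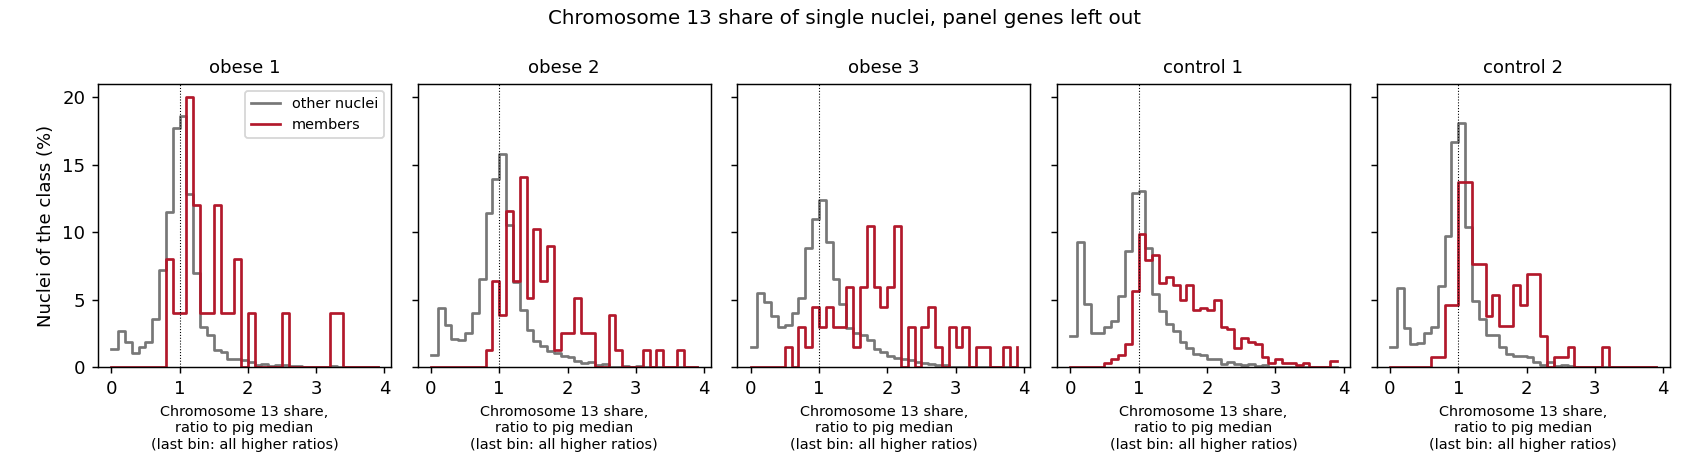
Distribution of the chromosome 13 share of single nuclei, panel genes left out, as a ratio to the pig's median, for high-panel nuclei (red) and other smooth muscle nuclei (grey) in each pig; the last bin holds all higher ratios. High-panel nuclei reach further above 1, and the peak between 0.1 and 0.2 is seen in the other nuclei alone.

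The chance of belonging to the high-panel nuclei climbed with this ratio in all 5 pigs. Over all pigs, 0 of 2211 nuclei under 1/3 were high-panel, as were 0.59% between 1/3 and 0.8, 2.96% from 0.8 to 1.25, 8.39% from 1.25 to 1.5, 15.8% from 1.5 to 2 and 32.4% above 2. In control replicate 1 the last 4 shares were 6.64%, 16.3%, 26.9% and 50.2%. In obese replicate 1 they were 0.742%, 0.98%, 6.31% and 8.89%, the last from 4 of 45 nuclei (exact 95% binomial interval 2.48% to 21.2%, counting error only). The panel genes are themselves on chromosome 13, so the score and this ratio are not independent measures.

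**Figure D5:**
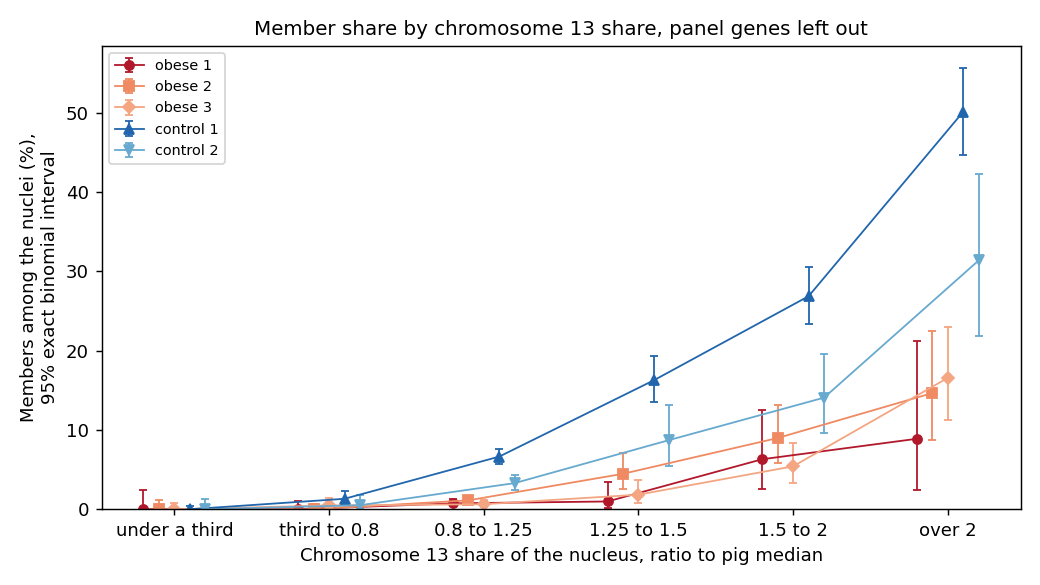
Percentage of smooth muscle nuclei that belong to the high-panel class, by the chromosome 13 share of the nucleus (ratio to the pig's median, panel genes left out), with exact 95% binomial intervals. The percentage climbs from 0 under 1/3 to 8.89% to 50.2% above 2 in the 5 pigs.

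Chromosome 13 was not alone in varying this way among smooth muscle nuclei. Each of the 18 autosomes was under 1/3 of its pig's median in 9.44% to 12.9% of the 18812 nuclei and above 1.5 times it in 10.95% to 15.8%. Counting error on the median count of a chromosome was 5.04% to 11.5%, far narrower than this spread. At least 1 autosome was under 1/3 in 28.9%, 43.2% and 58.1% of the nuclei of obese replicates 1 to 3 and in 63.8% and 47.2% of those of control replicates 1 and 2. As a description, the genes of chromosome 13 outside the panel were split by position into 2 sets of nearly equal number. The level of a set was the log2 of its UMIs plus 1 over the placed UMIs of all other chromosomes. Over nuclei the levels of the 2 sets varied together, with Pearson's r of 0.884 to 0.916 in the 5 pigs (2501 to 6332 nuclei each). Over the other chromosomes this correlation had a median of 0.846. The first set of a chromosome was also set against the second set of the next one, both over the UMIs of the remaining chromosomes. That correlation had a median of 0.107. Nuclei of a pig share a library, and no p was computed.

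High-panel nuclei also had more of the other chromosomes at a low level, and more of them at a high level. With chromosome 13 left out of the total, the other chromosomes under 1/3 of their pig median were counted, X included. In the high-panel nuclei of obese replicates 1 to 3 and control replicates 1 and 2 the mean number was 2.8, 3.21, 3.64, 3.87 and 2.87. In the rest it was 1.04, 1.57, 2.24, 2.77 and 1.79. The number was higher in the high-panel nuclei of 5 of 5 pigs. Other chromosomes above 1.5 times their pig median were also more numerous there, at a mean of 2, 3.4, 3.75, 3.61 and 2.87 in the same order. In the rest the mean number above 1.5 times was 1.45, 2.02, 2.82, 2.86 and 2.08. After thinning every nucleus to 2000 UMIs, the median count of detected genes was 890 to 971 in high-panel nuclei against 952 to 1056 in the rest, again lower in each pig.

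The comparison was then repeated within nuclei of a narrow chromosome range, a choice made after these values were seen. This range holds the summed level of the chromosome 13 genes nearly fixed, so the chromosome-wide rise is removed by the choice itself, and the counts on chromosome 13 within it describe the chosen nuclei and test nothing. In the 9588 nuclei with a chromosome 13 ratio of 0.8 to 1.25 the top 5% was taken again. There 0 of 8 held-out panel genes were called higher in edgeR (1 of 8 at an unadjusted p under 0.05, IGSF10), with a median log2 fold change of 0.20, against 0.75 in all nuclei; the values of all 8 were still above 0. By that construction 2 of 720 genes of chromosome 13 were higher there, with a median of -0.05. In the 9096 nuclei with no autosome under 1/3, 0 of 8 held-out genes were called (5 of 8 at an unadjusted p under 0.05), their median was 0.31, and 5 of 725 genes of chromosome 13 were higher. That choice also leaves out nuclei low in chromosome 13, so its counts likewise describe the chosen nuclei and are no test. Leaving out nuclei with 2 or more genes of another cell type's marker list left a set of 9670 nuclei. In that set 6 of 8 held-out genes were called, 195 of 648 genes of chromosome 13 were higher, and the log2 ratio of the chromosome's share was 0.80 ± 0.18 (SD, n = 5).

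The genes with the largest fall were all of low level in these nuclei. ALDH1A2, which makes retinoic acid, had no UMI in the high-panel nuclei of the 3 obese pigs and stood at 3.5 and 1.4 CPM in the control pigs, against 27.0, 16.3, 11.1, 45.3 and 10.7 CPM in the rest (log2 -3.70 ± 0.47, edgeR adjusted p = 1.61e-11). F13A1, a coagulation factor subunit of macrophages, was at 0, 11.1, 0, 0.3 and 0 CPM against 22.8, 114, 7.9, 0.7 and 4.3 CPM. BMP6, a bone morphogenetic protein, fell by 2.76 ± 0.31, TRPC4, a cation channel, by 2.58 ± 0.35 and GRIP1, a scaffold protein, by 2.95 ± 0.42 on the log2 scale. The immune or epithelial genes FYB1, RBM47, DOCK10, UBASH3B and LGALS3 had log2 fold changes between -2.40 and -2.24. RBM47, DOCK10, UBASH3B and LGALS3 were highest in the other nuclei of obese replicate 2, at 106, 204, 197 and 80.1 CPM.

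Macrophage markers were lower in high-panel nuclei as well, and those of most other cell types were not called. The 10 macrophage markers summed to 0 to 58.5 CPM in high-panel nuclei and to 14.6 to 264 CPM in the rest, with obese replicate 2 highest in both, and no macrophage marker had a UMI in the high-panel nuclei of obese replicate 1. Of 5 macrophage markers tested 2 were lower (F13A1 and CD163), and of 7 endothelial markers 2 were lower (PECAM1 and TEK), with none higher in edgeR. The endothelial markers summed to less in the high-panel nuclei of 4 pigs and to more in control replicate 2, at 1109 against 1045 CPM. Of the fibroblast, pericyte, Schwann cell, T or NK cell, B or plasma cell, lymphatic, kidney tubule and adipocyte markers tested, 0 were called in edgeR or DESeq2; at an unadjusted p under 0.05, 2 fibroblast, 1 T or NK cell and 2 kidney tubule markers were lower. The pericyte markers summed to more in the high-panel nuclei of 3 pigs, with 422 against 280 CPM in obese replicate 3. Nuclei with 2 or more genes of another list made up 35.8% to 49.4% of the high-panel nuclei and 43.8% to 51.1% of the rest. When these nuclei were left out, the genes lower fell from 389 to 131 and those higher were 231, and FYB1 was at 0.18. The part of other cell types in the falls was otherwise not tested.

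Gene lists around the roles of the panel genes and of smooth muscle held 197 tested genes. Of these 13 lay on chromosome 13, and 7 of the 13 were higher, where 26.2% of all tested genes of the chromosome were higher. Of the 184 that were off chromosome 13 or not placed, 5 were higher. Over all tested genes, 0.223% of those placed off chromosome 13 and 0.701% of those not placed were higher. Among the 5, ACTG2, ADAMTSL1 and COL19A1 belong to the list of other smooth muscle states, which was drawn up from these samples. Of the 197, 15 were lower, where 2.77% of all tested genes were. In the list of the histamine receptor and Gq calcium signalling, 1 of 12 tested genes was higher, ITPR1 on chromosome 13. PLCB1 and PLCB4, the phospholipases below Gq, were at 1257 ± 320 against 1095 ± 233 CPM and at 1183 ± 166 against 1096 ± 178 CPM (SD, n = 5), and neither was called. In the YAP and TEAD list 2 of 14 were higher, WWTR1 (TAZ, log2 0.77 ± 0.12) and VGLL4, both on chromosome 13, while TEAD1 at -0.04 and YAP1 at 0.14 on other chromosomes were not called. In the list of E2F, DP and cell cycle genes, the partners of TFDP2, 0 of 12 were called by edgeR, 0 by DESeq2, and 0 had an unadjusted p under 0.05. In the IGF and IGF2BP list 0 of 10 were called by either tool, with 3 at an unadjusted p under 0.05. The same holds for the Hippo scaffold and axon guidance list around SCHIP1, with 0 of 14 called by either tool and 6 at an unadjusted p under 0.05, and for the list of sister chromatid and DNA damage genes, with 0 of 10 and 0 unadjusted. The Wnt list had 0 of 17 called by either tool (4 unadjusted) and the sterol list 0 of 15 (2 unadjusted).

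Contractile genes were the list with most rises, 5 of 19 higher and 0 lower by edgeR (4 called by DESeq2, and 9 with an unadjusted p under 0.05, all higher), where 1.74% of all tested genes were higher. Of the 5, LPP (9536 ± 2100 against 5757 ± 1040 CPM, SD, n = 5) and MYLK, the kinase that starts contraction (1376 ± 306 against 829 ± 171 CPM), lie on chromosome 13. ACTA2 (log2 0.43 ± 0.11) and ACTG2 (0.57 ± 0.15) were among those elsewhere. ACTA2 was also used to define eligible nuclei, and ACTA2 and ACTG2 are close paralogs whose reads the counting could split. MYH11, used likewise, was at 3445 ± 412 against 2916 ± 311 CPM and was not called. The median of the list was 0.25, against -0.09 over all tested genes.

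Immediate early and stress genes went the other way, with 6 of 17 lower and 0 higher by edgeR (11 of 17 at an unadjusted p under 0.05, none of them higher, and 2 called by DESeq2), where 2.77% of all tested genes were lower. FOSB fell by 1.01 ± 0.16 and NR4A1 by 0.96 ± 0.15 on the log2 scale, in all 5 pigs, and KLF2, DNAJB1, DUSP1 and HSPH1 were also lower. Of 14 genes of modulated smooth muscle 3 were lower, SPP1, LGALS3 and THBS1, and 0 higher (0 at an unadjusted p under 0.05 either), beside the same 2.77% lower over all genes. Of these, SPP1 and LGALS3 are also macrophage products. In the list of BMP, TGF-beta and SMAD genes, TGFBR2 on chromosome 13 was higher (0.55 ± 0.14), and the ligands TGFB2 (-0.62 ± 0.19) and TGFB3 (-0.60 ± 0.16) were lower, of 18 tested. In these 18 genes and in the matrix list, 1 gene each was higher, beside 1.74% over all genes, and 2 and 1 were lower, beside 2.77%. Of 17 matrix genes COL8A1 on chromosome 13 was higher (0.49 ± 0.11) and POSTN lower (-0.77 ± 0.19).

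Among genes that name other smooth muscle states in this tissue, CTNNA3, an alpha catenin, was at 211 ± 102 CPM in the high-panel nuclei against 903 ± 332 CPM in the rest (SD, n = 5; log2 -2.08 ± 0.14, lower in 5 of 5 pigs). RGS6, a regulator of G protein signalling, was at 141 ± 25.2 against 301 ± 68.8 CPM, and GPRC5A was lower as well. ADAMTSL1 (0.48 ± 0.11) and COL19A1 (0.57 ± 0.18) on chromosome 1, with ACTG2, were higher. This list of 15 genes was drawn up from smooth muscle states already seen in these samples, so its changes are not independent evidence.

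The share of high-panel nuclei differed between pigs. It was 1% (exact 95% binomial interval 0.648% to 1.47%), 2.17% (1.72% to 2.7%) and 1.88% (1.46% to 2.38%) of eligible nuclei in obese replicates 1 to 3, and 10.1% (9.38% to 10.9%) and 4.65% (3.91% to 5.5%) in control replicates 1 and 2. The group means were 1.68% ± 0.609 (SD, n = 3) and 7.38% ± 3.86 (SD, n = 2), and the groups did not overlap. The share was set by the rule that chose the nuclei, and no test was made of it. The panel genes IGSF10 and HRH1 were higher over all eligible nuclei of the control pigs as well, IGSF10 at 85.0 and 66.2 CPM against 22.5, 46.5 and 24.3 CPM, and HRH1 at 197 and 193 CPM against 136, 107 and 117 CPM. VGLL3 was at 165 CPM over all eligible nuclei of control replicate 1 and at 28.2 to 63.5 CPM in the other 4 pigs. The share of nuclei with at least 1 low autosome overlapped between the groups and was not tested. In nuclei with a chromosome 13 ratio of 0.8 to 1.25, with the top 5% taken again among them, the shares were 1.24%, 2.34% and 1.26% in obese pigs and 10.3% and 6.34% in control pigs.

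Within the high-panel nuclei the diet comparison, obese minus control, called 8 of 5007 tested genes, 8 higher (0.16%) and 0 lower (0.0%) in edgeR. At an unadjusted p under 0.05, 254 were higher and 164 lower, and DESeq2 called 29 higher and 10 lower. With the top 5% taken within each library instead, edgeR called 6 of 7748 genes higher and 2 lower. The main comparison, to which the values below belong, used 1 cut over all libraries. That cut took 1% to 2.17% of the eligible nuclei of obese pigs and 4.65% and 10.1% of those of control pigs. The 2 groups are thus unlike fractions of their smooth muscle nuclei. THBS1, a matrix glycoprotein, was at 774, 515 and 530 CPM in the obese pigs and 48.3 and 39.3 CPM in the control pigs (log2 3.79 ± 0.38, edgeR adjusted p = 0.000792). The groups were far apart, as they were in the other smooth muscle nuclei, at 893, 413 and 795 against 81.2 and 117 CPM. NFKBIZ, a regulator of NF-kappa-B targets that itself lies on chromosome 13, was at 1256, 855 and 331 against 33.6 and 50.1 CPM (log2 4.31 ± 0.54). RGS2, which limits Gq signalling, was at 155, 72.4 and 125 against 5.7 and 6.8 CPM, and ZFP36L2, an mRNA decay factor, at 146, 136 and 230 against 13.6 and 20.3 CPM. ATF3, a stress-induced transcription factor, stood at 555, 173 and 365 against 10.4 and 29.8 CPM. ACTG2 was at 391, 281 and 277 against 79.7 and 35.2 CPM. All of these separated the groups, which was a condition for naming them. Of the 5007 tested genes, 1223 (24.4%) had groups that did not overlap.

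RERG, a Ras-like growth inhibitor, was called on 391 and 212 CPM in obese replicates 1 and 2, with obese replicate 3 at 10.1 CPM from 3 UMIs and the controls at 1.4 and 2.7 CPM. The eighth gene carried no symbol. On the lower side no gene was called; CACNA1A, LAMC3, PCSK5 and NCAM2 were among the genes with the smallest p whose groups did not overlap. The calcium channel gene CACNA1A was at 45.5, 27.8 and 87.8 against 199 and 530 CPM (edgeR adjusted p = 0.0711). LAMC3, a laminin chain, had 0, 2 and 0 UMIs in obese pigs and 219 and 35 UMIs in control pigs. The high-panel class held 25 nuclei in obese replicate 1, and leaving that pig out left 1 gene called, without obese replicate 3 the count was 26, and without control replicate 2 it was 15.

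The test of the difference, diet effect in high-panel nuclei minus diet effect in other smooth muscle nuclei of the same pigs, called 10 of 16460 genes with a larger value in high-panel nuclei (0.0608%) and 7 with a smaller one (0.0425%). Here too the high-panel nuclei of obese and control pigs were unlike fractions of the eligible nuclei. ATF3 had a larger diet effect in high-panel nuclei (difference of log2 fold changes 2.19 ± 0.34, edgeR adjusted p = 5.22e-07), and its levels in the other nuclei were 126, 155 and 203 against 21.0 and 104 CPM. NFKBIZ also did (1.34 ± 0.28), as did NR4A3, a nuclear receptor of the immediate early class (1.58 ± 0.30), whose high value came from obese replicate 1 at 1784 CPM, with 187 and 196 CPM in the other obese pigs. CACNA1A had a lower value (-1.86 ± 0.34), as did PCSK5, a proprotein convertase (-1.13 ± 0.24). THBS1, RGS2, ZFP36L2 and ACTG2 were not called in this test, with differences of 0.71, 0.57, 0.09 and 0.98. Without control replicate 2 the test called 3 genes, without control replicate 1 it called 5, and without obese replicates 1 and 3 it called 32 and 44.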

How the data were processed

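Values are the raw UMI counts as deposited. The labels name Cell Ranger 5.0 and the pig build Sscrofa11, Cell Ranger is 7.1.0 per the file headers, and Seurat 5.0 stands in the submitters' processing notes. The members and all gene lists were chosen with earlier results of these data known. Of 35670 features, 17508 had a symbol in the files, 223 were named from a table of gene identifiers, and 14485 were placed on a chromosome with RefSeq Sscrofa11.1, holding 82.7% of UMIs. Because the builds may differ, no positions are printed; SCHIP1 was placed by its product name. No sequence is printed. Counts were summed per pig and class and tested with edgeR 4.0.16 in R 4.3.3 (quasi-likelihood, TMM, filterByExpr, pig as block for high-panel against other nuclei and for the difference of diet effects), with Benjamini-Hochberg adjustment and a threshold of 0.05. Alternatives used DESeq2 1.42.0, RLE factors, other cuts, thinning with seed 1, and each pig left out. Named genes had a symbol, at least 20 CPM in either class and 1 direction in all 5 pigs, taking the 15 largest rises and 10 largest falls; for the diet tests, called genes whose groups did not overlap, filled by p to 5 per direction; flanking genes were the nearest tested gene with a symbol on each side. Fits were tested on simulated counts. Scripts ran in Python 3.11.15. Some genes that the rule names are not reported here.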

Additional observations from a re-analysis of the deposited data

Results flagged for a closer look

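For 14 named genes the diet effect in the high-panel nuclei differed from that in the other smooth muscle nuclei of the same pigs, by the edgeR interaction test at an adjusted p under 0.05. A condition for naming them was that obese and control pigs did not overlap in the log2 ratio of the 2 classes. This held for 3526 of the 16460 tested genes (21.4%). The differences of log2 fold changes above 0 were 4.97 for RERG, 4.67 for ETV1, 3.51 for KCNIP4, 2.69 for EDNRB, 2.31 for HPSE2, 2.19 for ATF3, 1.58 for NR4A3 and 1.34 for NFKBIZ. Those below 0 were -4.27 for RNF128, -3.98 for RNF144B, -2.40 for NCAM2, -2.30 for SPOCK1, -1.86 for CACNA1A and -1.13 for PCSK5. Several rest on few molecules in the smaller groups, and the fitted value of such a gene depends on the prior count. RNF144B had 1, 1 and 0 UMIs in high-panel nuclei of the obese pigs against 40 and 20 in the controls, RNF128 had 1, 4 and 0 against 2 and 10, and ETV1 had 5, 15 and 0 against 4 and 1. KCNIP4 was at 317 CPM in obese replicate 2 and at 4.4 to 13.5 CPM in the other pigs. PCSK5, a proprotein convertase, was well covered, at 865, 540 and 490 CPM in obese pigs and 1439 and 2272 CPM in controls, with 1156, 619 and 979 against 1407 and 1325 CPM in the other nuclei. NCAM2, a neural adhesion molecule on chromosome 13, was at 0, 25.1 and 3.4 against 85.7 and 118 CPM.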

How the results depend on the processing

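Each choice was changed alone. Leaving out 1 pig at a time gave 87 to 263 genes higher and 188 to 341 lower in high-panel nuclei, 8.98% to 27.8% of chromosome 13 genes higher, 1 to 26 genes called for diet within them, 0 to 456 for diet in the other nuclei (26 with all pigs) and 3 to 44 for the difference of diet effects. Taking the top 5% within each library gave 433 higher, 39.8% of chromosome 13 and 34 for the difference. The top 2% gave 25 higher, 114 lower, 2.06% of chromosome 13, and 0 genes for diet (109 at an unadjusted p under 0.05) and 0 for the difference (528 unadjusted) in edgeR; DESeq2 was not run there. The top 10% gave 405 higher and 68 for the difference. Thinning gave 211 lower, 17 for diet and 7 for the difference. Without nuclei holding other cell types' markers there were 131 lower, 15 for diet and 8 for the difference. Without the filter on low counts there were 119 higher, 701 lower, 8.00% of chromosome 13 and 93 for diet. DESeq2 called 101 lower and 39 for diet. Without the replicate block (the pig) 0 were higher, 0.0% of chromosome 13, and 2 were lower. With the replicate number as a block, diet within high-panel nuclei gave 43 genes; deviations of same-numbered pigs correlated at 0.0729 and 0.0441, and the labels name no shared animal, so the numbers do not pair them. Chosen after seeing the data, the middle chromosome 13 range gave 27 higher, 247 lower, 0.278% of chromosome 13, 34 for the difference and 0 held-out genes, and nuclei with no low autosome gave 48, 0.690%, 32 and 0 held-out genes; the top 2% and 10% for the difference were also added then. The chromosome 13 share stayed above 0 in log2 ratio under every setting run, from 0.06 in the middle range, which fixes it, to 0.91 in the top 2%. Log2 values changed sign in the middle range for GFM1 (-0.080), MECOM (-9.97e-06), VGLL4 (-0.16), GRK7 (-0.36), GK5 (-0.44), MFSD1 (-0.13), KPNA4 (-0.29), TRA2B (-0.42) and CHMP2B (-0.17); with no low autosome for CDV3 (-0.011), GRK7 (-0.38), GK5 (-0.21), MFSD1 (-0.14), KPNA4 (-0.19), SENP2 (-0.057), TRA2B (-0.33) and CHMP2B (-0.0076); without other markers for FYB1 (0.18), P2RY12 (0.48), ETV1 (-5.07), HPSE2 (-1.84) and RNF128 (3.53); in the top 2% for RERG (-0.27), ETV1 (-6.95), KCNIP4 (-9.65), EDNRB (-0.89), NR4A3 (-2.42), NCAM2 (0.10), CDV3 (-0.016), P2RY12 (0.26) and TRA2B (-0.25). They also did for RNF144B on thinning (8.07), TRA2B without the filter (-0.044), GRK7 without control replicate 1 (-0.069; without each other pig up to 0.97) and P2RY12 without obese replicate 2 (0.59). Of the named genes' other values, 808 kept their direction and call, 233 kept direction and lost the call, and 41 gained it. The cause was not tested. The 25 high-panel nuclei of obese replicate 1 limit the precision of the diet comparison within high-panel nuclei and of the difference of diet effects.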
